A study of Mus musculus with 15 samples.

Results

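The FGF receptors and their Sprouty feedback inhibitors were examined in epithelium sorted from mouse proximal small intestine. The 10 genes were chosen by symbol: the receptors Fgfr1, Fgfr2, Fgfr3 and Fgfr4, the receptor-like Fgfrl1, the Sproutys Spry1, Spry2 and Spry4, and the Spreds Spred1 and Spred2. Each symbol matched 1 row of the 24594 rows of the in vivo count table, and all 10 were among the 13314 genes that passed the filter on low counts. Fgfr1 passed it through its fetal counts alone. The fetal group was 3 libraries of C57Bl/6J epithelium at E16.5, late in gestation, sorted as EpCAM+ cells that were negative for DAPI, CD31 and CD45, and its labels give no genotype. The adult group was 3 libraries of wild-type C57Bl/6J crypt cells, sorted as EpCAM+/DAPI-/Lin-/CD24mid. The labels name no treatment for either group. Age and sort gate thus changed together and cannot be told apart, and the labels name a library kit for the adult group alone. The remaining 9 libraries of the series are organoids, whose table pairs no row with a gene, and they were not used here.

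Fibroblast growth factors bind receptor tyrosine kinases at the cell surface with heparan sulfate as a cofactor, and the activated receptor signals through the adaptor FRS2 to RAS and the kinase ERK. ERK activity induces genes that damp the same route, among them the Sproutys, while Spreds bring the RAS inhibitor neurofibromin to the membrane. In the developing gut, the epithelial splice form of Fgfr2 receives FGF7 and FGF10 made by the surrounding mesenchyme. Splice forms cannot be seen in counts per gene.

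Total counts were 7888998 to 10538004 per fetal library and 5795518 to 6045113 per adult library, of which the 10 genes took 3300 to 4797 counts in fetal and 1734 to 1860 counts in adult libraries. Whether replicate libraries stem from different animals is not in the labels. The p-values therefore reflect only how much these libraries vary, and that variation may be technical. The epithelial markers Epcam, Cdh1 and Vil1 were present in both groups, at 844 ± 12.9, 1448 ± 9.53 and 572 ± 13.8 CPM in fetal cells and 1034 ± 51.2, 1742 ± 86.0 and 608 ± 52.6 CPM in adult cells (CPM, counts scaled to library size with TMM factors, SD, n = 3 each). The whole list of 7 epithelial markers summed to 4633 to 4710 CPM in fetal and 6838 to 7266 CPM in adult libraries, with 0 called higher and 6 lower by edgeR. Among them, the keratin genes Krt19 and Krt8 averaged 793 and 398 CPM over fetal libraries and 2038 and 858 CPM over adult libraries. Olfm4, Lgr5, Ascl2 and Smoc2, markers of crypt stem cells, summed to 107 to 158 CPM in fetal and 6731 to 9192 CPM in adult libraries. Paneth cell markers summed to 12.7 to 18.6 CPM in fetal and 71.4 to 114.7 CPM in adult libraries. Exocrine pancreas markers summed to 554 to 1264 CPM in fetal libraries, with fetal replicate 2 highest, and 2.30 to 3.73 CPM in adult libraries, and erythroid markers to 31.1 to 53.9 CPM in fetal and 0.509 to 1.38 CPM in adult libraries. Markers of endothelium and immune cells, the types that carry CD31 and CD45, summed to at most 7.73 and 23.7 CPM in any library. Mesenchyme markers summed to 146 to 218 CPM in fetal and 7.61 to 16.6 CPM in adult libraries. All 10 tested of the 12 on that list were called higher in fetal cells, beside 29.0% of all tested genes, and Foxl1 and Lum had 0 adult counts. Of the 10, all but Vim passed the filter on low counts through their fetal counts alone, so their calls were largely fixed beforehand. In bulk samples, fewer cells of a type and less RNA per cell cannot be told apart.

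Of the 4 FGF receptors, 3 were higher in fetal epithelium, as was Fgfrl1, and of the 5 Sproutys and Spreds 1 was called. Of the 10 genes, 5 were called higher and 0 lower in fetal cells, where 29.0% of all tested genes were called higher, 25.9% lower and 54.9% in either direction (edgeR quasi-likelihood test, Benjamini-Hochberg adjusted p under 0.05 over all tested genes). DESeq2 also called 0 of the 10 lower, and 0 were lower at an unadjusted p under 0.05. The genes called were Fgfr1, Fgfr2, Fgfr4, Fgfrl1 and, just inside the threshold, Spry4. Fgfr3, Spry1, Spry2, Spred1 and Spred2 were not called. Since Fgfr1 passed the filter through the group where it is high, its call was largely fixed beforehand, and 4 of the other 9 were called. The median log2 fold change of all tested genes was 0.0062.

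**Figure D1:**
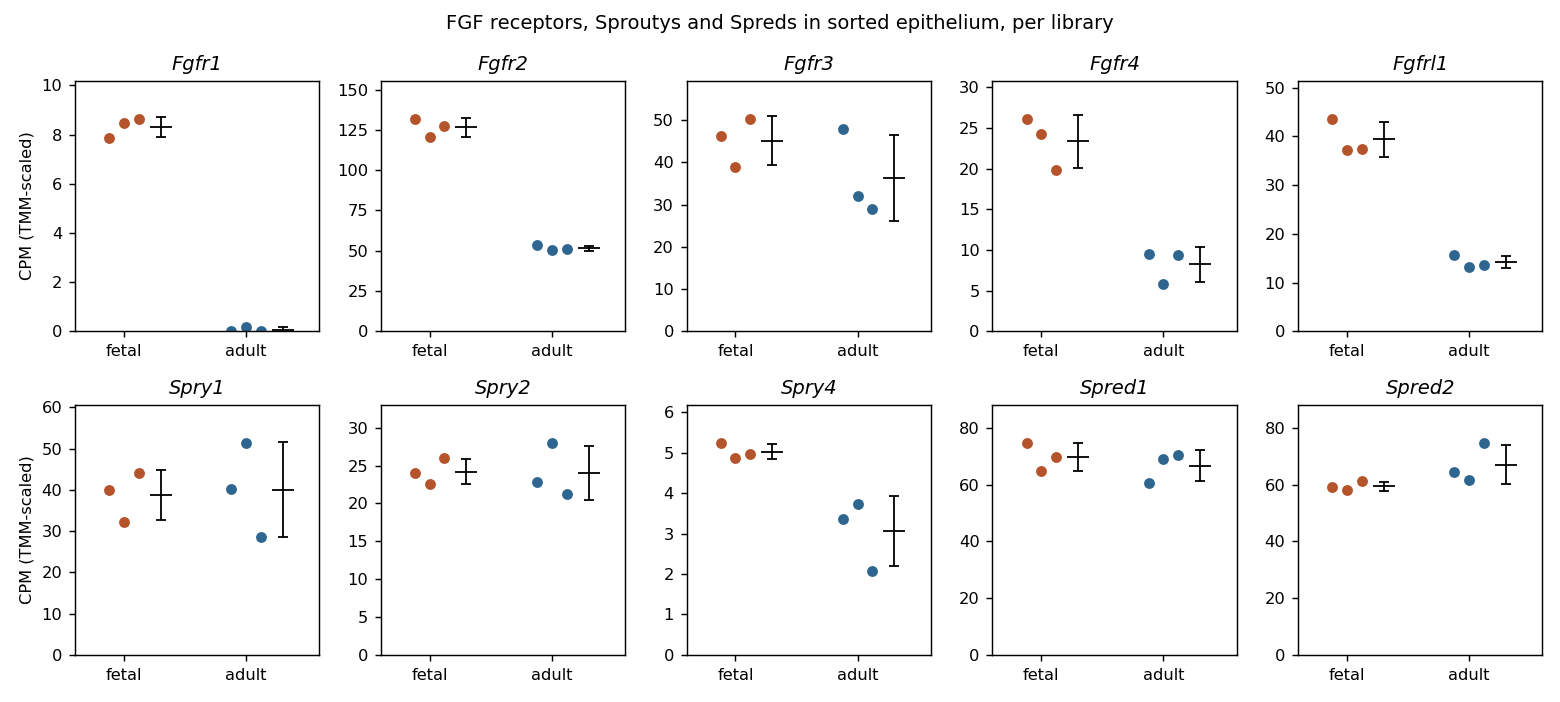
Level of each gene in CPM (vertical axis, from 0) in the 3 fetal and 3 adult libraries, one point per library, with the mean and SD in black. Fgfr1, Fgfr2, Fgfr4, Fgfrl1 and Spry4 lie higher in every fetal library than in any adult one, as did 32.7% of tested genes. Spred2 lies lower in every fetal library, as did 29.6%. Fgfr3, Spry1, Spry2 and Spred1 overlap between the groups.

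RefSeq start-site windows, from 250 bases before to 50 bases after an annotated start (build GRCm38.p6, the assembly also called mm10), were found for 8 of the 10 genes, 9 windows in all, and not for Fgfr1 or Spry4. They are shown for Fgfr2, Fgfr4 and Fgfrl1, the called genes that have a window and the largest changes. Capitals mark the letters CCGGAA, an ETS motif, and GGAATG, a TEAD motif, each searched on both strands. They do not overlap in Fgfr4, the one printed window that holds both. The windows read 5′ to 3′ on the gene's strand and lie at chr7:130266759-130267058 on the minus strand for Fgfr2, chr13:55152568-55152867 on the plus strand for Fgfr4 and chr5:108693979-108694278 on the plus strand for Fgfrl1.
Fgfr2: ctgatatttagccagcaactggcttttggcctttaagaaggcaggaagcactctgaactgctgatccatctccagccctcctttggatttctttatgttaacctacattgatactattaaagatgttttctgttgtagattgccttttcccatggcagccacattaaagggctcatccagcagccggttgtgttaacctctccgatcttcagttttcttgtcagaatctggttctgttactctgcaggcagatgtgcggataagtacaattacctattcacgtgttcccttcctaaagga
Fgfr4: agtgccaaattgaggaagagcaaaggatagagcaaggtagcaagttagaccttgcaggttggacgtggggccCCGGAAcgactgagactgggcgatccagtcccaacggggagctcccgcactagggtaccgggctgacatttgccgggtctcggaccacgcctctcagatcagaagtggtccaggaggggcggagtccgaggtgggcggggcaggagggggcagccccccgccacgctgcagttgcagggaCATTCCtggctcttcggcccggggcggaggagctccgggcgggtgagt
Fgfrl1: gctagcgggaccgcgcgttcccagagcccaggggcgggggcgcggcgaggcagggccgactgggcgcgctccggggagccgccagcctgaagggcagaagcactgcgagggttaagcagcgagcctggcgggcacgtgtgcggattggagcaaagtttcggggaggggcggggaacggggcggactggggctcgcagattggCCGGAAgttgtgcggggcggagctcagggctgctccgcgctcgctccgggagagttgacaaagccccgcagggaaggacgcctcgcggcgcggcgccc
The ETS letters stood in 3 of the 9 windows (Fgfr4, Fgfrl1 and Spry2), against 14.9% of 32851 windows of the same length. The TEAD letters stood in 2 of the 9 (Fgfr4 and Spry1), against 14.7% of all windows. The AP-1 letters TGANTCA were in 0 of the 9 and in 7.81% of all windows. The Fgfr2 window was the poorest in G and C of the 3 printed, at 43.7%, beside 65.3% for Fgfr4 and 73.7% for Fgfrl1. These letter matches are descriptions and do not show binding.

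Fgfr2 was the most highly counted of the receptors. It stood at 132, 120.4 and 128 CPM in the fetal libraries and at 53.2, 50.4 and 50.8 CPM in the adult libraries (Entrez 14183, chromosome 7, 130162451 to 130266808). All fetal libraries lay above all adult ones, as for 32.7% of tested genes, and replicates lay close together in both groups. The ratio of the means was 2.46 and the log2 fold change 1.30 ± 0.09 (SE), with an adjusted p of 4.66e-08 from edgeR.

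Fgfr4, the receptor that acts with β-Klotho in signalling by FGF15 (FGF19 in humans), stood at 26.1, 24.2 and 19.8 CPM in the fetal libraries and at 9.55, 5.77 and 9.34 CPM in the adult libraries (Entrez 14186, chromosome 13, 55152818 to 55168759). The groups did not overlap, and the low adult value came from replicate 2. Its log2 fold change was 1.50 ± 0.20 (edgeR adjusted p = 3.29e-05). Fgfrl1, which binds FGFs but lacks the intracellular kinase domain of the other receptors, stood at 43.5, 37.2 and 37.5 CPM in fetal libraries and 15.6, 13.2 and 13.7 CPM in adult libraries (Entrez 116701, chromosome 5, 108694229 to 108706950). Here too every fetal library lay above every adult one, at a log2 difference of 1.48 ± 0.13 (edgeR adjusted p = 8.01e-07).

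Fgfr1, the receptor typical of mesenchymal cells, was the gene with the largest fitted change and also the one with the fewest adult reads. It had 63, 68 and 92 counts in the fetal libraries, or 7.86, 8.48 and 8.62 CPM, and 0, 1 and 0 counts in the adult libraries (Entrez 14182, chromosome 8, 25518759 to 25575718). The adult group thus rested on 1 read. The ratio of summed counts scaled by depth was 145 (25.7 to 5743, exact 95% counting interval, which covers counting error only), and the fitted log2 fold change was 6.80 ± 0.54. No p is given, because the gene was tested only through its fetal counts. With so few adult reads the fitted value depends on the fit's prior count and is no bound. Without adult replicate 2, which held the only adult read, the fitted value was 8.99. Of all tested genes, 1.92% had a larger log2 fold change. Mesenchyme markers were higher in the same libraries: they summed to 202, 218 and 146 CPM in fetal replicates 1 to 3. Pdgfra stood at 10.7 ± 1.71 CPM in fetal cells and had 2 adult counts, and Col3a1 stood at 32.4 ± 8.55 CPM and had 1. The part of such cells in the Fgfr1 difference was not tested.

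Fgfr3 was the receptor that was not called. It stood at 46.3, 38.9 and 50.2 CPM in the fetal libraries and at 47.9, 32.1 and 28.9 CPM in the adult libraries (Entrez 14184, chromosome 5, 33721724 to 33737068). Adult replicate 1 lay among the fetal values, and the other two adult libraries lay below all of them. The log2 fold change was 0.32 ± 0.17 with a 95% interval of −0.05 to 0.68 (edgeR adjusted p = 0.126). Without adult replicate 1 it was 0.56 and was called (edgeR adjusted p = 0.00565, range over alternatives 0.00565 to 0.381).

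**Figure D2:**
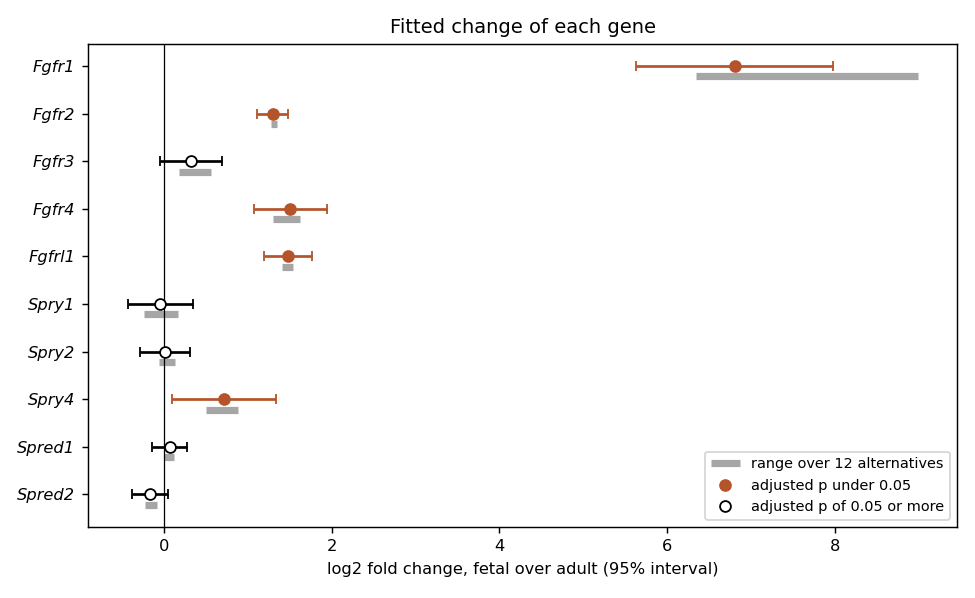
Fitted log2 fold change, fetal over adult (horizontal axis), of each gene with its 95% interval, filled where the adjusted p is under 0.05, and the range over 12 alternative settings as a grey bar. Fgfr2, Fgfr4 and Fgfrl1 sit between 1.30 and 1.50, Fgfr1 at 6.80 with the widest interval, and Spry1, Spry2 and Spred1 within 0.07 of 0. The point of Fgfr1 is filled, but its call was largely fixed beforehand.

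The makeup of the receptor pool also differed in its values. Levels were compared between genes as CPM per kilobase of merged exon in GENCODE M21, which may not be the annotation the authors counted on. Fgfr3 took 23.6%, 21.9% and 27.2% of the summed level of the 4 receptors in the fetal libraries and 46.0%, 40.7% and 34.8% in the adult libraries. Its share was thus lower in every fetal library (exact two-sided permutation p = 0.1, the smallest that 3 against 3 libraries can give). Fgfr2 took 46.6%, 47.0% and 47.8% in fetal and 35.4%, 44.3% and 42.5% in adult libraries, without overlap (exact permutation p = 0.1). The share of Fgfr4 was 25.4 ± 3.26% in fetal and 18.7 ± 3.97% in adult cells, and the groups overlapped (SD, n = 3 each, exact permutation p = 0.2). Fgfr1 took 3.25 ± 0.30% in fetal cells and 0.052 ± 0.090% in adult cells (SD, n = 3 each). With the length of the longest transcript in place of merged exons, the Fgfr2 share was 59.7 ± 0.29% in fetal and 51.8 ± 5.08% in adult cells. The Fgfr3 share was then 22.2 ± 2.16% in fetal cells and 37.3 ± 5.48% in adult cells.

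Spry1, an inhibitor that ERK activity induces, was not called and its groups overlapped. It stood at 40.0, 32.3 and 44.1 CPM in the fetal libraries and at 40.3, 51.4 and 28.5 CPM in the adult libraries (Entrez 24063, chromosome 3, 37639947 to 37644599). The adult values spread wider than the fetal ones and enclosed them. Its log2 fold change was −0.04 ± 0.18, with a 95% interval of −0.44 to 0.35 (edgeR adjusted p = 0.860), and its sign changed between alternatives, from −0.24 to 0.17. Spry2, its paralog, stood at 24.1, 22.6 and 26.0 CPM in fetal libraries and 22.8, 28.0 and 21.3 CPM in adult libraries (Entrez 24064, chromosome 14, 105891947 to 105896819). The groups again overlapped, with a log2 fold change of 0.013 ± 0.138 and a 95% interval of −0.29 to 0.31 (edgeR adjusted p = 0.946, log2 range over alternatives −0.07 to 0.13). Those intervals leave out a 2-fold change in either direction. Adult replicate 3 was the lowest adult library for Spry1, Spry2 and Spry4, as it was for 33.2% of all tested genes.

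Spry4, the least abundant Sprouty, had 42, 39 and 53 counts in the fetal libraries and 19, 22 and 12 in the adult libraries (Entrez 24066, chromosome 18, 38586247 to 38601347). In CPM this was 5.24, 4.86 and 4.97 in fetal and 3.36, 3.73 and 2.07 in adult cells. All fetal values lay above all adult ones, as they did for 32.7% of tested genes. The log2 fold change was 0.71 ± 0.29, with a 95% interval of 0.09 to 1.33, and the edgeR adjusted p of 0.0498 was at the edge of the threshold. It stayed called in 4 of 12 alternatives, with adjusted p from 0.0371 to 0.163 over all 12. Leaving out any fetal library, or adult replicate 1 or 3, ended the call (edgeR adjusted p = 0.0689 to 0.163), and DESeq2 gave an adjusted p of 0.136.

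Neither Spred was called, and both intervals were narrower than those of the Sproutys. Spred1 stood at 74.7, 64.7 and 69.8 CPM in the fetal libraries and 60.5, 69.1 and 70.5 CPM in the adult libraries (Entrez 114715, chromosome 2, 117121071 to 117182279). The groups overlapped, with a log2 fold change of 0.06 ± 0.10 and a 95% interval of −0.15 to 0.28 (edgeR adjusted p = 0.602). Spred2 stood at 59.3, 58.0 and 61.1 CPM in fetal libraries and 64.3, 61.8 and 74.7 CPM in adult libraries (Entrez 114716, chromosome 11, 19924442 to 20024026). Every fetal value was below every adult one, as for 29.6% of tested genes, yet the log2 fold change of −0.17 ± 0.10 did not pass (95% interval −0.38 to 0.04, edgeR adjusted p = 0.158).

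The summed level of inhibitors per receptor was lower in every fetal library than in every adult one. Summed per kilobase of merged exon, the 3 Sproutys and 2 Spreds amounted to 1.84, 1.82 and 2.02 times the 4 receptors in the fetal libraries and to 3.33, 5.04 and 4.06 times in the adult libraries. With the longest transcripts the multiples were 1.08 ± 0.0483 in fetal and 2.36 ± 0.435 in adult libraries (SD, n = 3 each), so their size rests on the lengths used, while fetal over adult was 0.457 by merged exons and 0.456 by longest transcripts. For a pair picked after its values were seen, where length plays no part, Fgfr2 had 5.47, 5.33 and 4.91 counts per Spry2 count in fetal libraries and 2.33, 1.80 and 2.39 in adult libraries. Among the 3 Sproutys, Spry1 took 51.2 ± 2.41% of the summed level per kilobase in fetal and 52.6 ± 4.03% in adult cells (SD, n = 3 each, exact permutation p = 0.6). Spry4 took 4.09 ± 0.41% in fetal and 2.46 ± 0.32% in adult cells, without overlap (SD, n = 3 each, exact permutation p = 0.1).

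**Figure D3:**
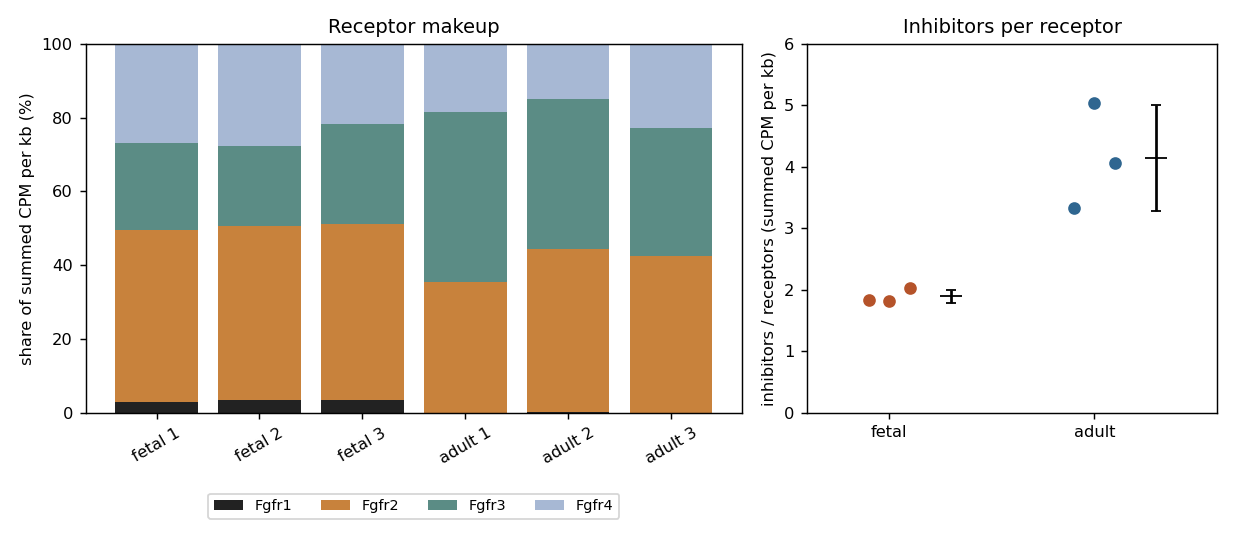
Left, share of each receptor in the summed CPM per kilobase of Fgfr1 to Fgfr4 (%) in each library. Right, summed CPM per kilobase of the 5 inhibitors divided by that of the 4 receptors, one point per library with mean and SD. The Fgfr3 share is 21.9% to 27.2% in fetal and 34.8% to 46.0% in adult libraries, and the ratio is 1.82 to 2.02 in fetal and 3.33 to 5.04 in adult libraries.

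Ordered by level per kilobase of merged exon, Fgfrl1 led in fetal cells at 14.2 ± 1.29 CPM per kb, and Spry1, Spred2, Fgfr2, Spry2 and Spred1 followed down to 10.3 ± 0.736 CPM per kb, each overlapping the next. Fgfr4 and Fgfr3 came below these at 6.59 ± 0.912 and 6.31 ± 0.803 CPM per kb, overlapping each other, and Spry4 and Fgfr1 were last at 1.06 ± 0.0407 and 0.843 ± 0.0412 CPM per kb. In adult cells, Spred2, Spry1, Spry2 and Spred1 stood at 14.5 ± 1.48 to 9.83 ± 0.802 CPM per kb, each overlapping the next. Fgfrl1, Fgfr3 and Fgfr2 followed at 5.09 ± 0.445, 5.07 ± 1.42 and 4.98 ± 0.147 CPM per kb and overlapped, then Fgfr4, Spry4 and Fgfr1. All 4 of Spred2, Spry1, Spry2 and Spred1 thus stood above all receptors in adult cells by this measure, but with longest transcripts Fgfr2 ranked 3 of 10 there, at 11.6 ± 0.343 CPM per kb, and 1 of 10 in fetal cells, at 28.6 ± 1.29 CPM per kb. Exons of Fgfr1, Fgfr3 and Spry1 overlap annotated transcripts on the opposite strand, and those of Fgfr2 a transcript of Ctbp2 on the same strand. The strand setting of the counting is not given in the sources used here, so reads there may be shared.

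Around the receptors, 173 pathway genes in 11 lists were read from the same fit. Of the 139 tested, 57 were higher and 35 lower in fetal cells, with a median log2 fold change of 0.13. That is 41.0% higher and 25.2% lower, beside 29.0% and 25.9% of all tested genes. Several of the 57, among them Klb, Gpc3, Dusp9 and Axl, passed the filter on low counts through their fetal counts alone. Their calls were thus largely fixed beforehand.

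**Figure D4:**
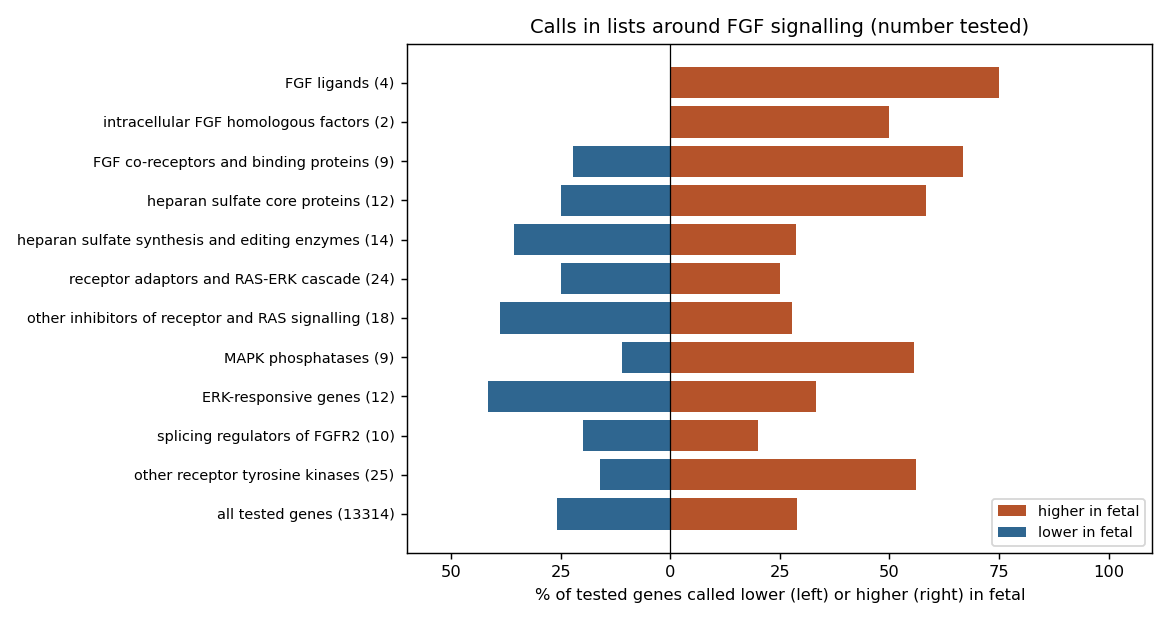
Percent of the tested genes of each list called higher (right) or lower (left) in fetal cells by edgeR, with the number tested in parentheses and all 13314 tested genes at the bottom. MAPK phosphatases have 5 of 9 higher and 1 lower, and ERK-responsive genes 4 of 12 higher and 5 lower. Some higher calls are of genes that passed the filter on low counts through their fetal counts alone.

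Few ligands were counted in the sorted epithelium. Of 18 secreted FGFs, 4 could be tested, of which 3 were higher, with a list median log2 fold change of 0.79. Fgf9, a ligand the gut epithelium sends to mesenchyme, stood at 18.6, 17.6 and 17.6 CPM in fetal libraries and 3.71, 3.90 and 5.88 CPM in adult libraries, with log2 fold change 1.99 ± 0.20 (edgeR adjusted p = 3.14e-06). Fgf2 was higher by 1.01 ± 0.23 (edgeR adjusted p = 0.00207). Fgf1 was called at log2 fold change 0.58 ± 0.23 with overlapping groups (edgeR adjusted p = 0.0456), and the call ended in 5 of 12 alternatives, those without fetal replicate 2 or 3 or adult replicate 1 or 2 and DESeq2 (adjusted p over all 12 of 0.00805 to 0.168). Fgf10, the mesenchymal ligand of Fgfr2, had 3 fetal and 0 adult counts, and Fgf15, the ileal ligand of Fgfr4, had 4 fetal and 4 adult counts. Of 4 intracellular FGF homologous factors, which do not signal through these receptors, 2 were tested and Fgf14 was higher (3.30 ± 0.43). Like Fgfr1, Fgf14 passed the filter on low counts through its fetal counts alone, so no p is given.

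Co-receptors and binding proteins held 6 higher and 2 lower of 9 tested, beside 29.0% and 25.9% of all tested genes, with a median log2 fold change of 1.22. Of the 6, Klb, Flrt2, Ncam1 and Cdh2 passed the filter on low counts through their fetal counts alone. Their calls were thus largely fixed beforehand. Of the 2 lower genes, Fgfbp1, a carrier of secreted FGFs (−0.34 ± 0.12, edgeR adjusted p = 0.0326), passed in 6 of 12 alternatives, and it did not without fetal replicate 2 or 3 or adult replicate 1 or 3. Klb, which encodes β-Klotho, stood at 9.60, 14.1 and 14.1 CPM in fetal libraries and 1.24, 0.339 and 0.864 CPM in adult libraries. Its log2 fold change was 3.94 ± 0.36. No p is given for Klb, because it was tested only through its fetal counts. Its fetal values all lay above its adult ones, as for 32.7% of tested genes. Fgfr4, the partner of β-Klotho, was higher in fetal libraries as well, and a link between them was not tested. Flrt3, a membrane protein that binds FGF receptors, averaged 115 ± 12.1 CPM over fetal libraries and 49.6 ± 6.54 CPM over adult libraries (log2 fold change 1.22 ± 0.11). Flrt2 was at 23.3 ± 4.33 CPM in fetal cells with 3 adult counts, a ratio of 132 (45.0 to 643). The adhesion molecules Ncam1 and Cdh2, which can bind FGF receptors and are typical of neural and mesenchymal cells, were at 8.31 ± 1.38 and 4.15 ± 0.917 CPM in fetal cells and had 0 adult counts. L1cam, another adhesion molecule, was lower, averaging 3.32 ± 1.78 CPM over fetal libraries and 109 ± 2.35 CPM over adult libraries (log2 fold change −4.97 ± 0.21). Neuron and glia markers summed to 48.0 to 68.7 CPM in fetal and 5.01 to 6.11 CPM in adult libraries, with all 4 tested of 7 higher. Of those 4, all but Ret passed the filter on low counts through their fetal counts alone, so their calls were largely fixed beforehand. Ret, the receptor of enteric neurons, carried most of the sum, at 35.2, 56.9 and 41.1 CPM in fetal and 4.42, 3.05 and 3.80 CPM in adult libraries, and without it the sum was 11.8 to 13.0 CPM in fetal and 1.21 to 3.05 CPM in adult libraries. The part of such cells in these differences was not tested.

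Heparan sulfate carriers changed in both directions. Of 12 tested core proteins, 7 were higher and 3 lower, beside 29.0% and 25.9% of all tested genes, with a median of 0.94. Of the 7, Sdc3, Gpc1, Gpc3, Gpc6 and Col18a1 passed the filter on low counts through their fetal counts alone. Their calls were thus largely fixed beforehand. Gpc3, a glypican of embryonic tissues, was at 358, 397 and 332 CPM in fetal libraries and had 3 counts in all in adult libraries, a ratio of 2076 (710 to 10067). Col18a1, a collagen that carries the chains, was higher by 4.32 ± 0.22, and Gpc6 had 175 fetal counts and 1 adult count, a ratio of 114 (20.1 to 4513). The syndecan Sdc4, the glypican Gpc4 and Hspg2, the basement membrane protein perlecan, were lower, at log2 fold changes of −1.30 ± 0.09, −1.20 ± 0.11 and −1.07 ± 0.20. Mesenchyme markers were higher in the same fetal libraries (146 to 218 CPM, against 7.61 to 16.6 CPM in adult libraries), and their part in these values was not tested. Sdc1, the main syndecan of epithelia, was not called (−0.14 ± 0.10, edgeR adjusted p = 0.263). Enzymes that build or edit the chains held 4 higher and 5 lower of 14 tested, with a median of 0.05, and 3 lower without fetal replicate 1 or 2. Sulf2, which removes sulfate groups from the chains at the cell surface, stood at 79.6, 84.8 and 87.1 CPM in fetal libraries and 14.1, 21.4 and 7.09 CPM in adult libraries, with log2 fold change 2.56 ± 0.23 (edgeR adjusted p = 1.01e-06). Hs6st2, which adds the groups that Sulf2 removes, was higher by 3.57 ± 0.56 over 6 adult counts, and by 5.39 without adult replicate 1. Hs6st2 also passed the filter through its fetal counts alone. Hs3st1, a sulfotransferase, Hpse, a heparanase, and Ext1, a chain polymerase, were lower by log2 fold changes of −1.78 ± 0.20, −1.73 ± 0.23 and −0.72 ± 0.10. Sulf1, the paralog of Sulf2, had too few counts to be tested (55 in fetal and 4 in adult libraries).

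The adaptors and the RAS-ERK cascade below the receptors held 6 higher and 6 lower of 24 tested, with a median of −0.0079, near the shares of all tested genes, and 2 lower without fetal replicate 2. Frs2, the adaptor of FGF receptors, stood at 66.1, 64.6 and 73.4 CPM in fetal libraries and 61.9, 71.3 and 71.2 CPM in adult libraries, and was not called (edgeR adjusted p = 0.998). Gab1, a docking protein, was not called either (−0.11 ± 0.14, edgeR adjusted p = 0.530). The largest rises were in the GTPase Nras and the kinases Map2k1 and Braf, with log2 fold changes of 1.10 ± 0.09, 0.67 ± 0.10 and 0.62 ± 0.09. Rps6ka1 and Rps6ka3, kinases downstream of ERK, were lower by −0.36 ± 0.09 and −0.35 ± 0.08.

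Among phosphatases of ERK and related MAP kinases, 5 of 9 tested were higher and 1 lower, with a median of 0.67. Of all tested genes, 29.0% were higher and 25.9% lower. The list is mixed: Dusp4, Dusp5, Dusp6 and Dusp9 act on ERK, while Dusp8, Dusp10 and Dusp16 act mainly on the kinases JNK and p38. The lower one, Dusp8 (−0.52 ± 0.18, edgeR adjusted p = 0.0249), passed in 7 of 12 alternatives, and it did not without fetal replicate 2 or 3 or adult replicate 1 or 2. Dusp6, a phosphatase that FGF signalling induces, stood at 30.3, 41.2 and 30.7 CPM in fetal libraries and 26.0, 23.9 and 14.2 CPM in adult libraries. The groups did not overlap, but fetal replicate 2 was the highest, and without it the log2 fold change was 0.52 and not called (edgeR adjusted p = 0.0589), against 0.67 ± 0.20 with all libraries (edgeR adjusted p = 0.0115). Dusp4 and Dusp5 were higher by 0.89 ± 0.12 and 0.83 ± 0.18 (edgeR adjusted p = 3.12e-05 and 0.00180). Dusp10 was higher by 1.87 ± 0.30, and Dusp9, over 9 adult counts, by 5.06 ± 0.34. Dusp9 passed the filter on low counts through its fetal counts alone, so its call was largely fixed beforehand.

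Other targets of ERK did not share one direction, with 4 higher and 5 lower of 12 tested and a median of −0.06. Without fetal replicate 2 there were 1 higher and 3 lower, and without fetal replicate 3 or adult replicate 2 there were 3 lower. Adult replicate 3 was the lowest adult library for 7 of these 12 genes, for 5 of the 9 phosphatases and for 33.2% of all tested genes, and the summed level of the 12 was 1609, 1430 and 1487 CPM in fetal libraries and 1812, 2583 and 1181 CPM in adult libraries. The early response genes Fos and Egr1, the most abundant of the 12 and chosen after their values were seen, carried that spread. Fos stood at 521, 414 and 455 CPM in fetal libraries and 754, 1250 and 384 CPM in adult libraries (log2 fold change −0.78 ± 0.29, edgeR adjusted p = 0.0345). Egr1 stood at 783, 712 and 772 CPM in fetal libraries and 578, 782 and 267 CPM in adult libraries and was not called (edgeR adjusted p = 0.137). Without adult replicate 3 the 12 genes held 3 higher and 6 lower. Of the ETS factors that FGF signalling induces, Etv1 stood at 12.2, 15.96 and 15.8 CPM in fetal libraries. In adult libraries it stood at 1.06, 0.339 and 1.90 CPM (log2 fold change 3.72 ± 0.35). Etv1 passed the filter on low counts through its fetal counts alone, so no p is given. Etv5 was higher by 0.97 ± 0.33 (edgeR adjusted p = 0.0244), a call that ended without fetal replicate 2 (adjusted p = 0.101) or adult replicate 3 (adjusted p = 0.0782). Etv4 averaged 4.43 ± 0.706 CPM over fetal libraries and 7.07 ± 2.11 CPM over adult libraries, with log2 fold change −0.68 ± 0.27 at an edgeR adjusted p of 0.0476 that passed in 6 of 12 alternatives (0.0314 to 0.228). Without fetal replicate 2 or 3 or adult replicate 2 it did not pass. Phlda1, an early target of growth factor signalling, was higher by 0.53 ± 0.17, but not without fetal replicate 2 (edgeR adjusted p = 0.0684), and by 0.32 without adult replicate 3, and the ephrin receptor Epha2 was not called (−0.15 ± 0.19), though without adult replicate 3 it was lower by −0.40 (edgeR adjusted p = 0.00513). The genes Ccnd1 and Myc, which Wnt signalling also drives, were lower by −1.98 ± 0.12 and −1.08 ± 0.16, and Fosl1, an AP-1 subunit, by −1.74 ± 0.39.

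Further inhibitors of receptors and RAS held 5 higher and 7 lower of 18 tested, with a median of −0.09. Spred3, the remaining Spred, was at 5.99, 7.23 and 7.97 CPM in fetal libraries and 1.94, 1.02 and 0.864 CPM in adult libraries. Its log2 fold change was 2.47 ± 0.34, and its groups did not overlap. Spred3 passed the filter on low counts through its fetal counts alone, so no p is given. Spry3, the remaining Sprouty, was not called (0.52 ± 0.29, edgeR adjusted p = 0.153). Il17rd, a membrane inhibitor of FGF signalling, was lower at 7.86, 7.61 and 5.81 CPM in fetal libraries against 18.4, 11.0 and 18.0 CPM in adult libraries (log2 fold change −1.16 ± 0.23, edgeR adjusted p = 7.60e-04). Lrig1, an inhibitor of ERBB receptors that marks crypt stem cells, and Lrig3 were lower by −1.79 ± 0.08 and −2.03 ± 0.12, and Rasa3, which switches off RAS-type GTPases, by −3.32 ± 0.13. Errfi1, an ERBB inhibitor, was higher by 1.28 ± 0.17, and Rasal1, with 80 fetal and 2 adult counts, both in adult replicate 3, had a ratio of 26.0 (6.96 to 218). Like Spred3, Rasal1 passed the filter on low counts through its fetal counts alone. The adult sort took crypt cells, whose stem cell markers were higher in the same libraries (6731 to 9192 CPM against 107 to 158 CPM in fetal cells), and their part in these differences was not tested.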

How the data were processed

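RNA-seq libraries of sorted fetal and adult epithelium were compared, 3 per group. The deposited values are raw counts per gene: they are whole numbers with unequal library totals, and per the file headers each row has an Entrez identifier and a symbol. The submitters' processing notes name mm10 and edgeR. What aligner, counter, annotation and strand setting were used was not given in the sources used here. Adult libraries were made with a stranded kit for very low input, per the labels' protocols, and the kit of the fetal sort is not given in the sources used here. The 7 rows with an identifier but no symbol were kept. Rn45s, a ribosomal RNA precursor, took 7.32% to 10.7% of a library's counts.

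All genes were fitted together in edgeR 4.0.16 (R 4.3.3; glmQLFit and glmQLFTest, the quasi-likelihood test) after filterByExpr and TMM scaling, with group as the one term. The SE is the log2 fold change divided by the square root of F. It and its 95% interval are approximate for low counts. Alternatives were RLE scaling, library size only, DESeq2 1.42.0, no filter, no Rn45s, the replicate block and leaving out each library. The procedure was tested on simulated counts. These had a common spread for all genes and changes only in well-counted genes, so changes at low counts were not covered. Permutation tests of shares used scipy 1.17.1. Coordinates, windows and gene spans are RefSeq's on GRCm38.p6, and lengths GENCODE M21's. The 10 genes and the lists were chosen with earlier results of these data known. Named pathway genes are fixed key genes and up to 3 called genes per list and direction with the largest change and an average log2 CPM of at least 1. The text gives some of them.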

Additional observations from a re-analysis of the deposited data

How the results depend on the processing

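Over 12 alternatives, Fgfr2, Fgfr4 and Fgfrl1 kept their direction and their call, and Spry1, Spry2, Spred1 and Spred2 were called in none. Fgfr1 kept its call as well, but with 1 adult read that call was largely fixed beforehand. Called genes numbered 6397 to 8205 and called genes of the 10 numbered 4 or 5. Spry4 was not called with DESeq2 (log2 fold change 0.72), no filter (0.71) or the replicate block (0.74), and leaving out 1 library gave 0.50 to 0.88. Leaving out 1 library gave Fgfr3 0.18 to 0.56, with a call at 0.56. Longest transcripts in place of merged exons moved the fetal minus adult difference in inhibitors per receptor to −1.28 from −2.25, and leaving out 1 library gave −2.66 to −1.80. Changes in scaling moved the median of all genes by at most 0.05 (log2). The replicate numbers did not pair the libraries: deviations of same-numbered fetal and adult libraries correlated at −0.06, −0.04 and −0.09, and no library correlated best with its own number. The replicate block gave 6886 calls, against 7304 without it, and ended the calls of Spry4, Etv4 and Epha4 among the named genes. Of the list counts, lower FGF ligands came to 1 with DESeq2 or no filter (0 otherwise), higher intracellular factors to 2 with no filter (1), lower co-receptors to 1 with DESeq2 or library size only (2), lower MAPK phosphatases to 0 with DESeq2 and 2 without adult replicate 3 (1), and lower ERK-responsive genes to 3 with DESeq2 or the replicate block (5). Where calls were lost, the cause was not tested. Low counts limit Fgfr1 in adult cells and Spry4 in both groups.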

Other observations

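Of 36 other receptor tyrosine kinases, 25 were tested, with a median log2 fold change of 0.71. In fetal cells 14 were higher and 4 lower, beside 29.0% and 25.9% of all tested genes. Of the 14, Axl, Erbb4, Pdgfra, Pdgfrb, Ror1, Ddr2 and Insrr passed the filter on low counts through their fetal counts alone. Their calls were thus largely fixed beforehand. Axl had 0 adult counts. Pdgfra, a receptor of mesenchymal cells, stood at 10.7 ± 1.71 CPM in fetal cells over 2 adult counts, a ratio of 92.8 (25.5 to 770), and Ret, a receptor of enteric neurons, was higher by 3.56 ± 0.23. Markers of mesenchyme and of neurons and glia, lists that hold Pdgfra and Ret, were higher in the same fetal libraries, and their part was not tested. Receptors well counted in both groups did not share one direction. Ros1, chosen after its values were seen, stood at 191, 212 and 228 CPM in fetal libraries and 21.2, 18.3 and 23.5 CPM in adult libraries (log2 fold change 3.32 ± 0.11, edgeR adjusted p = 1.26e-10). Met and Insr, also chosen after their values were seen, averaged 157 and 132 CPM in fetal cells and 137 and 113 CPM in adult cells and were not called (edgeR adjusted p = 0.0871 and 0.0775). The genes Egfr, Erbb2 and Igf1r were lower by −0.63 ± 0.10, −0.59 ± 0.10 and −0.50 ± 0.11 (edgeR adjusted p = 1.02e-04, 3.50e-04 and 0.00149).

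Splicing regulators that act on Fgfr2 transcripts held 2 higher and 2 lower of 10 tested. Esrp1, which favours the epithelial form, was at 106, 93.8 and 103 CPM in fetal libraries and 156, 148 and 168 CPM in adult libraries (log2 fold change −0.64 ± 0.09, edgeR adjusted p = 3.98e-05). Its paralog Esrp2 stood at 90.9, 96.3 and 103 CPM in fetal and 87.9, 100.6 and 92.8 CPM in adult libraries and was not called (edgeR adjusted p = 0.694). Rbfox2 and Ptbp2 were higher by 0.47 ± 0.10 and 0.67 ± 0.19.

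Fgf16, a ligand outside the rule for named genes and chosen after its values were seen, had 0 counts in fetal and 20 in adult libraries. It was not tested under the filter on low counts.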
